A study of Drosophila melanogaster with 3 samples.

Results

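The 10 genes described here are trx, ash1, ash2, brm, mor, osa, fs(1)h, skd, tna and kis of Drosophila melanogaster, all of them trithorax group genes. They were taken by name from the 13945 protein-coding genes annotated on the 6 chromosome arms. The sites occupied by E(z) were measured in whole prepupae, with males and females pooled, by chromatin immunoprecipitation with sequencing (ChIP-seq). The animals came from a transgenic line that stably makes E(z) with GFP (green fluorescent protein) at its C-terminus, and which promoter drives the transgene is not stated in the sources used. The labels differ on the antibody: their antibody field names E(z), while the description speaks of precipitation through GFP. It is therefore not known whether the peaks cover the tagged E(z) alone or untagged E(z) as well. No age is given beyond the prepupal stage. The 3 biological replicates form 1 group, so no treated, mutant or control group could be compared. Of the 5623 peaks that passed the authors' reproducibility threshold, called the optimal list, 35 had their summit inside 1 of the 10 genes or within 5 kb of it.

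E(z) is the catalytic subunit of Polycomb repressive complex 2 (PRC2), which methylates histone H3 and keeps developmental genes silent through cell divisions. Trithorax group proteins were found genetically as the opponents of Polycomb, since they keep the same genes active. They work as histone methyltransferases, as ATP-driven nucleosome remodellers, as readers of acetylated histones or as parts of the Mediator complex, which links transcription factors to RNA polymerase. Polycomb response elements are the DNA sites that recruit Polycomb complexes in flies, and several DNA-binding factors, among them GAGA factor and Pho, are known to bind there.

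Each summit is described by its rank, where rank 1 is the highest signal in a list. The optimal list holds 5623 ranks, and the pooled list and each replicate's relaxed list hold 30000. A promoter summit lay at most 1 kb away from a transcription start site, or TSS, of the gene itself, and an intronic summit lay inside the gene, outside its exons and farther than 1 kb from its TSSs. A summit was found in a replicate when it lay inside 1 of that replicate's 5623 highest-signal peaks. Signal has no stated scaling and sequencing depth is unknown from these lists, so only ranks within a list are given.

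Most of the E(z)-GFP summits at trithorax group genes lay in introns and not at the genes' own promoters. Of the 35 summits, 24 were intronic, 5 were promoter summits, 6 lay in the 5 kb flanks and 0 lay in exons away from a TSS. Of the 6 flank summits, 3 lay within 1 kb of another gene's TSS. Of all 5623 optimal peaks, 2074 lay in introns and over 1 kb from any protein-coding TSS, and 40.8% lay within 1 kb of one. These sets are unlike, since the 35 were taken only inside the 10 genes or within 5 kb of them. The 40.8% also counts the TSSs of any gene, and the 5 promoter summits only those of the gene itself. Intronic summits occurred at trx, osa, skd, tna and kis, and promoter summits at brm, mor, fs(1)h, skd and tna. Of the 10 genes, 9 had a summit in the span or flanks, against 37% of all protein-coding genes under the same rule, and ash2 had none. A promoter summit was present at 5 of 10 genes, against 16.1% of all protein-coding genes. It was found in all 3 replicates at 3 of these, fs(1)h, skd and tna, and when any 1 replicate was left out, so that a peak had to be found in both others, the count was 3 of 10. An intronic summit was present at 5 of 10 genes, against 6.65% of all protein-coding genes. These counts are a description, since the genes were chosen with results of these data known.

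Gene length goes with these counts. The genes trx, osa, fs(1)h, skd, tna and kis span over 20 kb, and every intronic summit was in 5 of these 6 genes. Among all 1013 protein-coding genes of that length, 51.7% had an intronic summit and 35.1% had 2 or more, while 5 of the 6 trithorax group genes had 2 or more. A promoter summit was present at 3 of the 6 long trithorax group genes, against 44.1% of all genes of that length, a share near the background. The number of intronic summits was 8 at tna, 6 at kis, 4 at trx, 4 at osa, 2 at skd and 0 at fs(1)h. Among the 1013 long genes, 41 had as many intronic summits as tna or more, 85 as many as kis or more, and 167 as many as trx and osa or more. The 4 shorter genes, ash1, ash2, brm and mor, had 0 intronic summits.

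**Figure D1:**
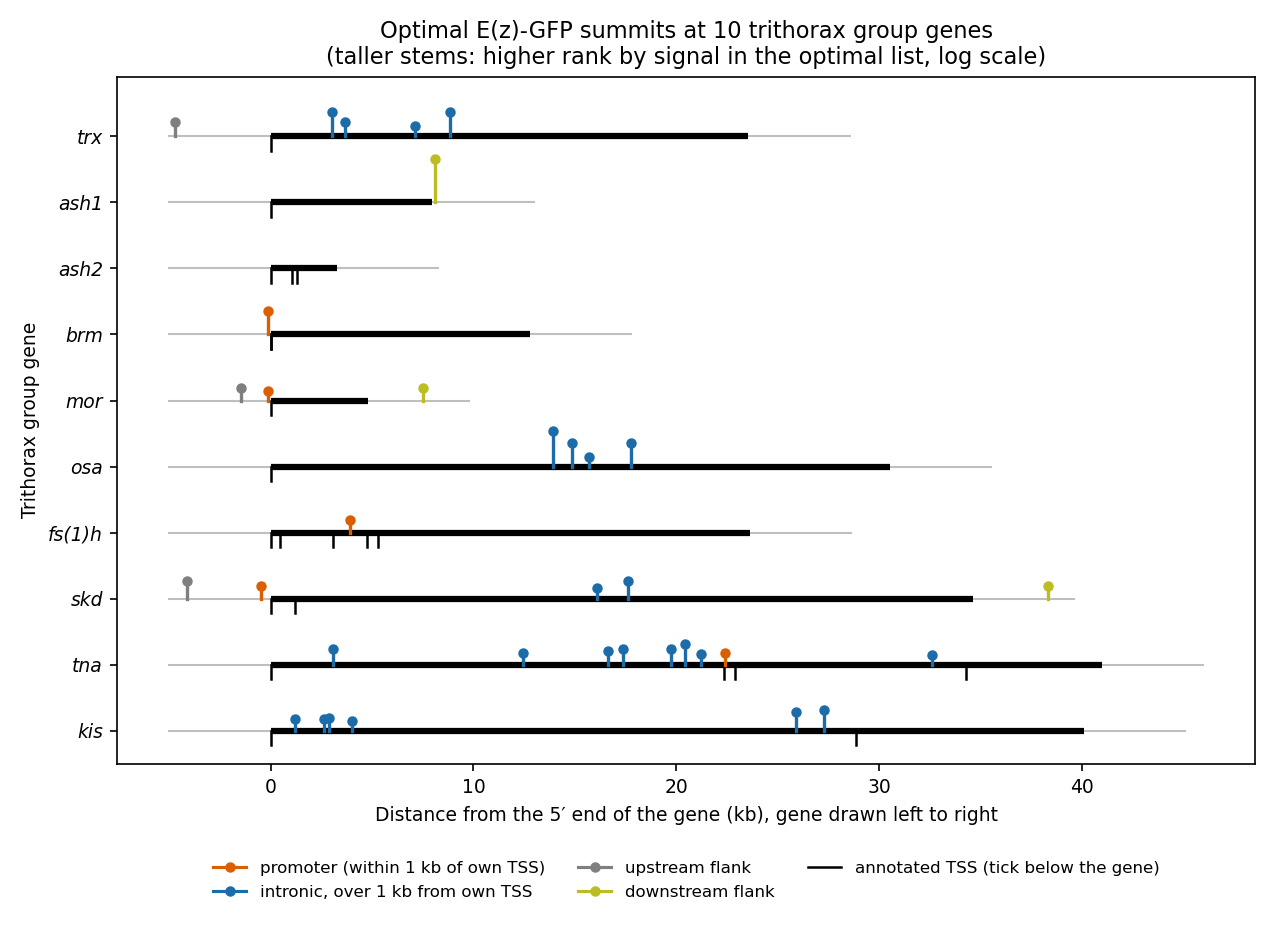
Position of the 35 optimal summits at the 10 trithorax group genes, drawn 5′ to 3′ with distance from the 5′ end in kb on the x axis and 1 gene per row. Stems mark summits, taller where the rank is higher, and ticks below the line mark TSSs; the intronic summits of osa sit together in the middle of the gene, and ash2 has 0 summits.

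**Figure D2:**
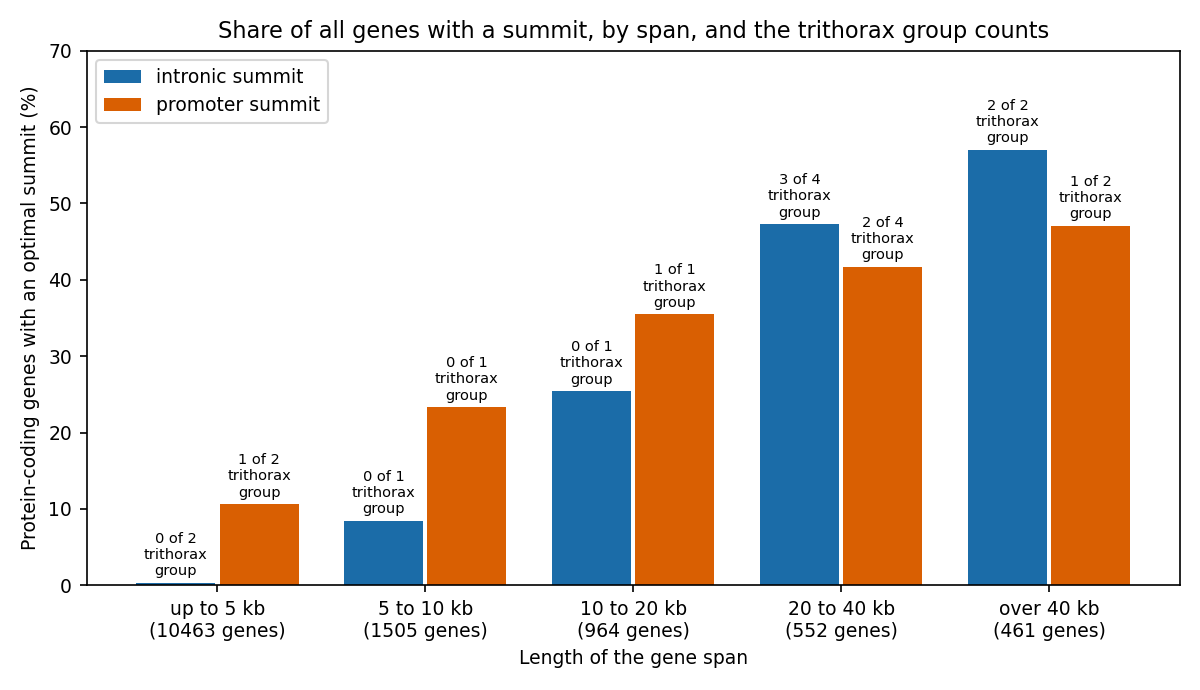
Share of all protein-coding genes with an intronic or a promoter optimal summit (y axis, %) by length of the gene span (x axis, with the number of genes). Text above the bars gives the trithorax group count of each class; both shares are higher in longer genes, and 5 of the 6 trithorax group genes over 20 kb have an intronic summit.

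Sequences are given first for 4 summits away from the gene's own promoter, the best summits of ash1, osa, trx and kis. Each is given as up to 300 bases of the dm6 plus strand around the summit, without annotated UTRs, from the RefSeq copy of genome release 6. Capitals mark matches to GAGAG (GAGA factor), GCCAT (the core of the Pho site), GTGTGT (Combgap), TGAGTG (Zeste) and TATCGATA (the DRE, the binding site of DREF) on either strand. Those of osa, trx and kis were added after their ranks were seen.
ash1, rank 2, downstream flank, chr3L:19590525-19590772: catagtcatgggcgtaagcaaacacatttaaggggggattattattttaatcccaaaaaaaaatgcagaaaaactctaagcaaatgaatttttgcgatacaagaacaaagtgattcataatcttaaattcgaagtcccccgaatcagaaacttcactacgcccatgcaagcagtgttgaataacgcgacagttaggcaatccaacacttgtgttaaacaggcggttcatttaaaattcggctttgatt
osa, rank 13, intron, chr3R:17704261-17704560: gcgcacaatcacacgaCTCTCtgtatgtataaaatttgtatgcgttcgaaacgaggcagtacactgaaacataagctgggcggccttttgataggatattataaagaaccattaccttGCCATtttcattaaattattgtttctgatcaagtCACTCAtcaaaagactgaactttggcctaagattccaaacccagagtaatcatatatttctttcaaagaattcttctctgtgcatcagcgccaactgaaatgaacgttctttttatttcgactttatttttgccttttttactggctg
trx, rank 172, intron, chr3R:14277928-14278227: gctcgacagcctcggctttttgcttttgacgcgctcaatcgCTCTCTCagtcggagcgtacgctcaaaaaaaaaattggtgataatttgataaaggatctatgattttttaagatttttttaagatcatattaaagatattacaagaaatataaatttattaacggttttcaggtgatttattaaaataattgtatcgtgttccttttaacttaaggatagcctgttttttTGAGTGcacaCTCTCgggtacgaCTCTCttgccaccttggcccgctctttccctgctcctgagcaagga
kis, rank 395, intron, chr2L:223392-223691: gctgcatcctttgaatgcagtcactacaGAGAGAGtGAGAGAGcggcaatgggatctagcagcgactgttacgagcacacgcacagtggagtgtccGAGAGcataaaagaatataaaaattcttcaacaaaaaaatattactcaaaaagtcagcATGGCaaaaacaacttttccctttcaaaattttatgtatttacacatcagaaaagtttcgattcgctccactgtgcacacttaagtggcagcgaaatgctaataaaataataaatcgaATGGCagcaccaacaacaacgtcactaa

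These 4 windows differ in their motif letters, counted over all 300 bases. The ash1 window holds 0 matches to any of the 5 motifs, and the osa window holds 1 GAGAG, 1 GCCAT and 1 TGAGTG match. The trx window holds 4 GAGAG matches and 1 TGAGTG match, and the kis window holds 5 GAGAG and 2 GCCAT matches.

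The histone methyltransferase genes differed widely. The gene trx encodes a methyltransferase of histone H3 and gives the group its name. It lies at chromosome 3R 14263358 to 14286903 on the minus strand and had 5 summits, 4 of them intronic. The summit at 14278078, in an intron 8825 bp downstream of the TSS, ranked 172 in the optimal list and 92, 245 and 380 in replicates 1, 2 and 3 (mean 239 ± 144, SD, n = 3). The summit at 14283887, 3016 bp downstream of the TSS, ranked 186 in the optimal list and 155, 204 and 251 in the replicates (mean 203 ± 48.0, SD, n = 3). Both lay in the first 563 ranks of the optimal list, the top 10% of it, and in the first 563 ranks of each replicate. The other intronic summits of trx were weaker, at ranks 2043 and 4564. The summit at rank 4564 was found in replicates 1 and 2, while its peak in replicate 3 ranked 13960. The fifth summit, at rank 1909, was in the upstream flank, 4733 bp from trx and inside the neighbouring gene red.

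At the promoter of trx, in contrast, E(z)-GFP peaks were weak or missing. The best peak within 1 kb of the TSS ranked 17414 in the pooled list, 20633 in replicate 1 and 18672 in replicate 3, and replicate 2 listed none. The trx summits at ranks 172 and 186 are both intronic and were listed in each of the 3 replicates.

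The gene ash1 encodes a methyltransferase of histone H3 that is known to counteract Polycomb silencing. It lies at 3L 19590773 to 19598755 and had 1 summit, which was not at its own promoter. That summit was 136 bp beyond the end of ash1, 8118 bp from its TSS and 113 bp upstream of the TSS of CG14100, and it ranked 2 in the optimal list and in each replicate. Within 1 kb of the ash1 TSS the pooled list and the 3 replicate lists held no peak. The gene ash2, which encodes a subunit shared by the histone methyltransferase complexes of the COMPASS family, lies at 3R 24650125 to 24653376. It had 0 peaks in its span and flanks in the optimal list, the pooled list and each of the 3 relaxed replicate lists.

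The Brahma complex genes brm, mor and osa encode the ATPase, a core scaffold subunit and the DNA-binding signature subunit of a nucleosome remodeller of the SWI/SNF family. The gene osa, at 3R 17687818 to 17718350, held the highest-ranked intronic summit of the group. That summit, at 17704411, was 13939 bp from the TSS and ranked 13 in the optimal list and 16, 16 and 11 in replicates 1, 2 and 3 (mean 14.3 ± 2.89, SD, n = 3). All 3 replicates placed it between ranks 11 and 16. A second summit, 940 bp away, ranked 232 in the optimal list and 221, 177 and 553 in the replicates (mean 317 ± 206, SD, n = 3). The summit at 17700589 ranked 234 in the optimal list and 121, 240 and 1066 in the replicates (mean 476 ± 515, SD, n = 3), with its lowest rank in replicate 3. The last, at rank 5574, was near the end of the optimal list and was found in replicates 1 and 2, while its peak in replicate 3 ranked 12225.

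The osa promoter was not in the optimal list, and the replicates differed there. The best peak within 1 kb of the TSS ranked 3979 in replicate 1, 14765 in replicate 2 and 4986 in replicate 3, and 8036 in the pooled list. The peak of replicate 1 was not that of the others, since it lay 784 bp from the TSS, against 103 bp in replicate 2 and 49 bp in replicate 3. Whether those of replicates 2 and 3 are 1 peak is not settled by these distances. In 2 of 3 replicates a promoter peak was thus among the 5623 highest-signal peaks, at different places.

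The brm gene had 1 summit, and it rested on a single replicate. It lay at 3L 15983002, midway between the TSSs of brm and of the divergent gene Arl1, 133 bp from each. It ranked 237 in the optimal list and the pooled list and 124 in replicate 1. Replicates 2 and 3 listed no peak over it among their 30000, and their nearest summits lay 14916 and 14881 bp away. The peak is therefore given as a value of replicate 1 and of the pooled list, with no spread over replicates.

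The mor gene, at 3R 15968134 to 15972913, had 3 summits of low rank. Its promoter summit lay 137 bp upstream of mor and 248 bp upstream of the divergent gene Hel89B, which encodes a DNA-dependent ATPase of the SNF2 family. It ranked 5517 in the optimal list and 5280, 7759 and 6522 in replicates 1, 2 and 3 (mean 6520 ± 1240, SD, n = 3), so it was found in replicate 1 only. A summit at rank 3307 lay 1456 bp upstream of mor inside Hel89B and was found in all 3 replicates. A summit at rank 3310 lay in the downstream flank, 40 bp from CG32856 and 55 bp from Rbf2, a gene of the retinoblastoma family, and was found in replicates 1 and 2.

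The remaining genes encode a reader of acetylated histones, a Mediator subunit, a SUMO ligase-like protein and a second kind of remodeller. The gene fs(1)h encodes the fly BET protein, which binds acetylated histones through its bromodomains. It lies at X 8037808 to 8061436, has 5 annotated TSSs and had 1 summit, at 8057535. The summit lay in an intron 823 bp from the nearest TSS, and thus counts as a promoter summit. It ranked 2812 in the optimal list and 3255, 1747 and 5489 in replicates 1, 2 and 3 (mean 3497 ± 1883, SD, n = 3), and it was found in all 3. Among the 5623 highest-signal peaks of a replicate, fs(1)h had 1 promoter summit in replicate 1, 1 in replicate 2 and 4 in replicate 3.

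The gene skd encodes Med13, a subunit of the Mediator kinase module, and lies at 3L 20992814 to 21027434. Its strongest intronic summit, at 21009808, ranked 970 in the optimal list and 947, 1282 and 1063 in the replicates (mean 1097 ± 170, SD, n = 3). Its promoter summit, at 21027898, ranked 2924 in the optimal list and 2514, 3118 and 4957 in the replicates (mean 3530 ± 1272, SD, n = 3). In each replicate this intronic summit of skd ranked higher than the promoter summit, and the ranges did not overlap. The other intronic summit, at rank 4569 in the optimal list, ranked 3316, 6357 and 6023 in the replicates, lower than the promoter summit in each. The promoter summit was 464 bp upstream of skd but 17 bp from the TSS of Pdss2, a divergent gene for an enzyme of ubiquinone synthesis. The upstream flank summit of skd, at rank 968, was 215 bp from CG10584 and 250 bp from Polr3E, which encodes a subunit of RNA polymerase III. The downstream flank summit, at rank 3082, was found in 2 replicates, and the intronic summit at rank 4569 in 1.

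The gene tna encodes a zinc finger protein related to SUMO ligases that interacts with the Brahma complex. It lies at 3L 10835528 to 10876496 on the plus strand and had 9 summits, 8 of them intronic. The strongest, at 10855958, ranked 414 in the optimal list and 205, 512 and 1556 in replicates 1, 2 and 3 (mean 758 ± 708, SD, n = 3). Replicate 1 was the highest here and replicate 3 the lowest. It stood 1931 bp upstream of an internal TSS of tna, and neighbouring summits at ranks 1364, 1411, 2060 and 4286 lay between 1131 and 5734 bp upstream of that same TSS. At the internal TSS itself a promoter summit, 23 bp downstream in the first exon from that TSS, ranked 3392 in the optimal list and 2616, 4800 and 2772 in the replicates (mean 3396 ± 1218, SD, n = 3). In each replicate the strongest intronic summit of tna ranked higher than this promoter summit. Farther off, a summit 3062 bp downstream of the first TSS of tna ranked 1289 in the optimal list and 1312, 1488 and 1296 in the replicates (mean 1365 ± 107, SD, n = 3), a narrow range. The remaining intronic summits of tna, at ranks 4030 and 5528, were each found in 2 replicates, as was that at rank 4286. Of the 8 intronic summits of tna, those at ranks 4030, 4286 and 5528 ranked below the promoter summit in the optimal list.

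The gene kis encodes a remodeller of the CHD family and lies at 2L 210735 to 250823 on the minus strand. Its 6 summits were all intronic. The strongest, at 223542, ranked 395 in the optimal list and 737, 272 and 510 in the replicates (mean 506 ± 233, SD, n = 3). The next, at 224929, ranked 688 in the optimal list and 1235, 485 and 578 in the replicates (mean 766 ± 409, SD, n = 3). Both stood upstream of an internal TSS of kis, at 1580 and 2967 bp, and both had their lowest rank in replicate 1. The other 4 lay between 1200 and 4014 bp downstream of the first TSS, at ranks 2626, 3193, 3837 and 5162. Of these, only that at rank 3193 was found in all 3 replicates. The summit at rank 2626 was found in replicates 1 and 2, that at rank 3837 in replicates 1 and 3, and that at rank 5162 in replicate 3 only. The summits at ranks 2626 and 3193 were 247 bp apart. In replicates 1 and 2 the highest-signal peak over both was the same, at ranks 1423 and 3846. These 2 replicates also listed a lower-ranked summit closer to that at rank 3193, at ranks 17343 and 15182.

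Within 1 kb of a TSS of kis a peak was present in every replicate, while the optimal list held none there. The best such peak ranked 8386 in replicate 1, 7663 in replicate 2 and 3082 in replicate 3, and 6177 in the pooled list. The gene has 2 TSSs, and the ranks are not tied to either of them. Among the 6 summits of kis, that at rank 5162 had the widest range, since it ranked 2425 in replicate 3 and 21596 in replicate 2 and had no peak in replicate 1.

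**Figure D3:**
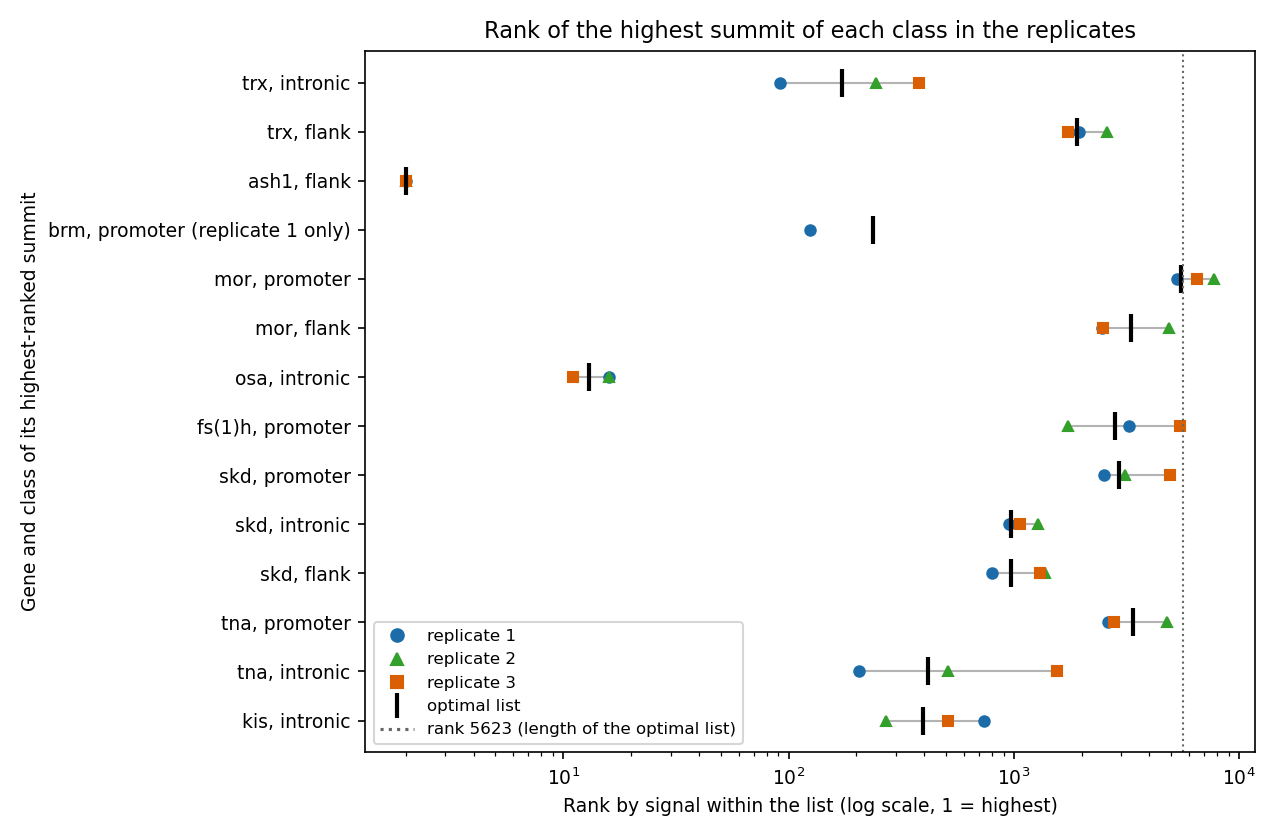
Rank by signal (x axis, log scale) of the highest-ranked summit of each class at each trithorax group gene in replicates 1 to 3 (symbols) and in the optimal list (black bars); the dotted line marks rank 5623. The osa intronic and ash1 flank summits keep nearly the same rank in all replicates, and the brm promoter summit has a symbol for replicate 1 only.

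The intronic summits of the group had a higher median rank than its promoter summits. The 24 intronic summits had a median rank of 1727, against 2926 for all 2074 optimal summits in introns and over 1 kb from any protein-coding TSS. Of the 24, 7 (29.2%) were in the first 563 ranks of the optimal list, against 7.28% of the 2074. The 5 promoter summits had a median rank of 2924. Of the 5, only that of brm, which rests on replicate 1, was in the first 563 ranks. All 2293 optimal summits within 1 kb of any protein-coding TSS had a median rank of 2555, with 14.5% in the first 563 ranks. That rule is wider, since the 5 were counted at the gene's own TSSs only. Under it the flank summits near CG14100, CG10584 and CG32856, at ranks 2, 968 and 3310, would count too. The 24 summits come from 5 genes and are not independent, so these medians are given without a test. At skd and tna, the genes with both kinds of summit, the best intronic summit, chosen from 2 and 8, ranked higher than the only promoter summit in 3 of 3 replicates, while other intronic summits of both genes ranked lower in the optimal list.

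Taken singly, the 3 replicates gave the same number of genes with an intronic summit and different numbers of genes with a promoter summit. In each replicate's 5623 highest-signal peaks, 5 of 10 trithorax group genes had an intronic summit, against 6.68%, 6.63% and 6.22% of all protein-coding genes in replicates 1, 2 and 3. Of the 6 trithorax group genes over 20 kb, 5 had one in each replicate, against 50.8%, 50.9% and 47.0% of all genes of that length. The number of intronic summits was 22, 24 and 24 in replicates 1, 2 and 3 (mean 23.3 ± 1.15, SD, n = 3). A promoter summit was present at 6, 3 and 5 of the 10 genes (mean 4.67 ± 1.53, SD, n = 3), against 16.6%, 16.9% and 19.7% of all protein-coding genes in replicates 1, 2 and 3. Of the 35 optimal summits, 32 were found in replicate 1, 29 in replicate 2 and 27 in replicate 3, against 84.1%, 83.2% and 73.5% of all optimal peaks. In all 3 replicates 22 of the 35 were found, against 55.9% of all optimal peaks. Of the 22 found in all 3, 15 were intronic and 3 were promoter summits, at fs(1)h, skd and tna. The median distance between an optimal summit and that of the replicate peak over it was 19.5 bp over 100 such pairs. Only peaks over the summit were paired, and optimal peaks had a median width of 424 bp, so the pairing itself limits this distance. Since the replicates went into the optimal list, their sharing with it is a description and no independent support.

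Some promoter summits lay near a neighbouring gene too. Of the 5 promoter summits, 3 lay within 1 kb of the TSS of another protein-coding gene, and in each case, brm with Arl1, mor with Hel89B and skd with Pdss2, the pair is divergent, with TSSs 266, 385 and 481 bp apart. Of all 2293 promoter summits of the optimal list, 23.1% lay within 1 kb of the TSSs of 2 or more genes. Of the 6 flank summits, 3 lay within 1 kb of the TSS of another gene, those near CG14100, CG32856 and CG10584, against 40.8% of all optimal summits. None of the 24 intronic summits did. The lists do not tell which gene of a pair a summit belongs to. The promoter windows are given here to set the shared promoters beside those of fs(1)h and tna. Each is up to 300 bases of the dm6 plus strand around the summit, without annotated UTRs and with the same motifs in capitals. The tna stretch ends before its summit, at 10857912, which lies in the UTR bases left out.
brm, rank 237, chr3L:15982870-15983134: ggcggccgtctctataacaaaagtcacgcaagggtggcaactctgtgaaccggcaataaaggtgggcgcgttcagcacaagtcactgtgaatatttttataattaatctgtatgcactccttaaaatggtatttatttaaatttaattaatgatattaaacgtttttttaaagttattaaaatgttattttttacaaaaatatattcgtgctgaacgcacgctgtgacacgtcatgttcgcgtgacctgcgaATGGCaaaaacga
fs(1)h, rank 2812, chrX:8057385-8057684: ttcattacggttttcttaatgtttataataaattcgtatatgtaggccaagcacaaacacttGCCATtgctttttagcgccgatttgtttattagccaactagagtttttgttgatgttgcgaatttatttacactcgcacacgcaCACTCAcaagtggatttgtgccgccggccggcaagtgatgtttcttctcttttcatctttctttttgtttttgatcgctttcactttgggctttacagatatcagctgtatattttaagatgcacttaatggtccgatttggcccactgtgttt
skd, rank 2924, chr3L:21027748-21027914: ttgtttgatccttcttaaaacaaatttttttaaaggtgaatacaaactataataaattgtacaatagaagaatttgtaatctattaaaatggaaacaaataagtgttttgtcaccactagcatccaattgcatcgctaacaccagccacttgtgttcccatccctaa
tna, rank 3392, chr3L:10857762-10857888: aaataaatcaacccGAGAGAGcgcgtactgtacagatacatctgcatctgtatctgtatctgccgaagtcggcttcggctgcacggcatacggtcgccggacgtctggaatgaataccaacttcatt
mor, rank 5517, chr3R:15972914-15973199: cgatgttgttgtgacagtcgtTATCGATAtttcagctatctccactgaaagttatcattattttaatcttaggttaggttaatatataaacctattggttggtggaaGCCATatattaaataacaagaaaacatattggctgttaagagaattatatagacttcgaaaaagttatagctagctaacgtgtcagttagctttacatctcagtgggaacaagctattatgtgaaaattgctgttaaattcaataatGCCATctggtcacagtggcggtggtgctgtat

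Over all 300 bases, GAGAG occurred in 1 of these 5 promoter windows, that of tna, with 2 matches. GCCAT occurred in the other 4, with 2 matches each at brm and mor and 1 each at fs(1)h and skd, of which 1 at brm and that at skd touch the UTR bases left out. The DRE letters TATCGATA occurred at mor, and again in the flank summit between CG32856 and Rbf2. TGAGTG had 1 match, at fs(1)h, and GTGTGT had 1, at skd, which is not in the stretch shown.

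Over all 35 summits, motif matches were about as common as in the optimal list. GAGAG was in 15 of 35 windows of 300 bp (42.9%, exact 95% binomial interval 26.3% to 60.6%), against 42.1% of all 5623 optimal summits. GCCAT was in 14 of 35 (40%), against 39.6%. GTGTGT was in 5 of 35 (14.3%), against 22.8%, TGAGTG in 8 of 35 (22.9%), against 17.1%, and TATCGATA in 2 of 35 (5.71%), against 1.73%. For each of the 5 motifs the share of all optimal summits lay inside the exact binomial interval of the trithorax group share. GAGAG was in 13 of the 24 intronic windows (54.2%), against 38.8% of all optimal summits over 1 kb from a TSS. For the intronic windows the shares of the other motifs were 33.3% for GCCAT, against 40.8%, 16.7% for GTGTGT, against 22.3%, 29.2% for TGAGTG, against 16.8%, and 0% for TATCGATA, against 0.39%. With 250 bp each side TGAGTG was in 54.2% of the intronic windows, against 27.1%, and in 40% of all 35, against 27.2%. With 100 bp it was in 25% of the intronic windows, against 9.55%, and in 20% of all 35, against 10.3%. Intervals take windows as independent, which neither the 24 nor the 35 are, so none is read for the intronic windows. The 24 windows come from 5 genes. The kis summits at ranks 2626 and 3193 were 247 bp apart, so windows of 300 bases or more overlap there, and 1 match can count in both. All 5 motifs were counted at several window lengths, so an excess of TGAGTG or of any other motif was not tested. The intronic tna summit at rank 4286 had 16 overlapping GAGAG matches, the most of the 35. Matches were counted on both strands and may overlap each other, and a match does not show that a factor binds.

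**Figure D4:**
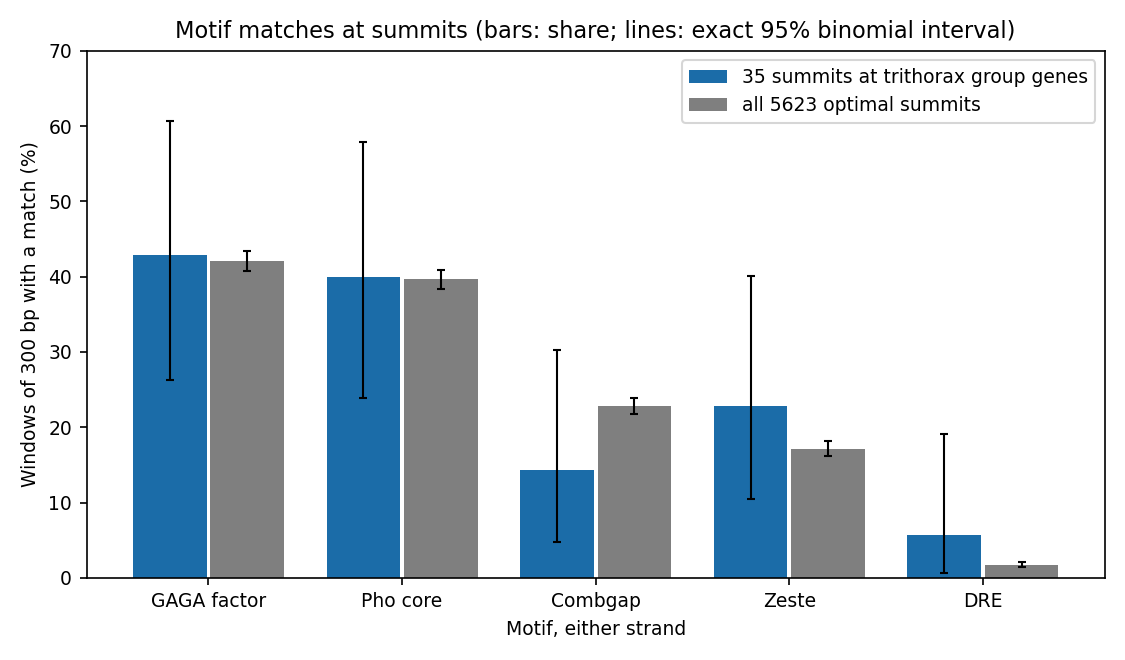
Share of windows of 300 bp around summits that hold each motif on either strand (y axis, %), at the 35 summits of trithorax group genes and at all 5623 optimal summits. Lines are exact 95% binomial intervals, which cover counting of windows only; the intervals of the trithorax group include the share of all summits for each of the 5 motifs.

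Promoter summits were present at 3 of 28 further genes of the same complexes and pathway, against 16.1% of all protein-coding genes. An intronic summit was present at 2 of the 28, against 6.65%, and any summit in the span or flanks at 6, against 37%. The 7 other Brahma complex genes, Bap111 and Bap170 among them, had 0 promoter summits, as did the 11 other COMPASS genes, such as Cfp1 and Dpy-30L1, and the 3 other genes of the Mediator kinase module, such as Cdk8 and CycC. The 3 genes with a promoter summit were Trl, tou and nej. They encode, in this order, GAGA factor, a chromatin remodelling subunit and the histone acetyltransferase CBP. Trl and tou had 1 promoter summit each, and nej had 2. The best promoter ranks of Trl, tou and nej in the replicates averaged 414 ± 168, 1082 ± 596 and 905 ± 340 (SD, n = 3). The genes E(bx) and Kdm5, a histone demethylase gene, were among those without. Of the 10 trithorax group genes 6 span over 20 kb, and of the 28 further genes 3, among them tou, which had 7 intronic summits.

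The classes have sharp distance limits, and some summits lay close to them. The fs(1)h summit, at 823 bp, was the promoter summit farthest from a TSS, while a tna summit at 1131 bp and a kis summit at 1200 bp were the intronic ones nearest to a TSS. The trx flank summit, 4733 bp from the gene, was the farthest inside the 5 kb limit, and the nearest outside it was 5621 bp from skd, at rank 4936.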

How the data were processed

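E(z)-GFP ChIP-seq peaks of 3 replicates were taken as the authors deposited them for dm6. Per the labels, a relaxed list was derived from the alignments of its replicate with 1 more file, and the optimal list from the replicate and pooled lists. The sources used here name no peak caller, aligner or version. The deposited signal values have no stated scaling and were used to rank peaks within a list. The deposited -log10 q-values were not used for any result. Depth is unknown, so intervals cover counting error only. Summits were the peak start plus the deposited offset, and coordinates are 1-based.

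Genes and TSSs were those of Ensembl release 115 (BDGP6.54), and sequence that of RefSeq genome release 6. All 10 genes had the same coordinates in both annotations, and every peak ended within its arm. Summits were classified and motifs counted with Python 3.11.15, pandas 2.3.3 and scipy 1.17.1, tested on simulated data. No test was run, since there is 1 group. The genes, lists and motifs were chosen with earlier results of these data known. The genes named are the 10, every gene with a TSS within 1 kb of their summits, the neighbour red, and per complex up to 4 further genes with the highest-ranked promoter summit and up to 2 without, in alphabetical order. Of the further genes 1 was matched through a synonym. Sequences shown are those of each gene's promoter summit and of the highest-ranked summit of all, with 3 added after seeing the values, all without annotated UTRs. The dm3 lists were not used here. With 1 group, nothing beyond the label of separate biological replicates describes their spread.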

Additional observations from a re-analysis of the deposited data

How the results depend on the processing

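The number of trithorax group genes with a promoter summit was the count that moved most. It was 5 of 10 in the optimal list, 1 in the 2811 peaks of highest signal, 3 among peaks found in all 3 replicates, and 3 when each replicate in turn was left out, which lowers the number of peaks. Over the same settings the share of all protein-coding genes was between 9.91% and 12.03%. With RefSeq gene models it was 5. With a promoter distance of 500 bp it was 4, against 13.4% of all genes, and of 2 kb 6, against 20.7%. In the pooled list to rank 2N, where N is the length of the optimal list, it was 7, against 23.7%. The summits at the 10 genes numbered 35 in the optimal list, 19 in the 2811 peaks of highest signal, 22 among peaks found in all 3 replicates, 24 to 27 with a replicate left out and 57 in the pooled list to rank 2N. Intronic summits numbered 24, with 15 in the 2811 peaks of highest signal, 15 among peaks found in all 3 replicates and 16 to 19 with a replicate left out. Genes with any summit numbered 9, and 8 with each replicate left out, against 28.3% to 30.6% of all genes. Summits found in all 3 replicates numbered 22, and 24 to 27 with a replicate left out. In the other settings run for these 5 counts they stayed within 1.5 times their value. With a promoter distance of 500 bp the mean best promoter rank over the replicates was 7752 at fs(1)h, against 2751 at 1 kb, and 6901 at skd, against 3530. The share of windows with a GAGAG match was 22.9% with 100 bp each side, against 28.1% of all optimal summits, and 65.7% with 250 bp, against 59.4%. With a GTGTGT match it was 42.9% with 250 bp, against 37.5%, so its order to the background is the opposite of that at 150 bp. The window length itself sets how many letters are searched. No paired analysis was possible because there is only 1 group. The depth of the lists is unknown, so a missing peak is below the lists' lower end and is not shown to be absent.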

Other observations

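Some of the intronic summits of osa and kis lay near the start of an annotated non-coding RNA gene. The osa summits at ranks 13, 232 and 234 were 716, 224 and 152 bp from the TSS of lncRNA:CR46035 or lncRNA:CR46036, and the first of them was inside lncRNA:CR46035. The kis summit at rank 395 was 23 bp from the TSS of lncRNA:CR44222, and those at ranks 2626, 3193 and 3837 were 992, 745 and 714 bp from that of lncRNA:CR44218. In all, 7 of the 24 intronic summits (29.2%) were within 1 kb of a non-coding RNA TSS, against 3.47% of all 2074 optimal summits in introns and over 1 kb from a protein-coding TSS. The 7 come from 2 genes, the comparison was chosen after the values were seen, and transcription was not measured here.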
